A study of Homo sapiens with 30 samples.

Results

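The DNA replication genes described here are a list of 43 genes chosen by name, with earlier results of these data already known. All 43 were found in each of the 3 deposited count tables, among 60612 genes in the knockout table and 56303 in the overexpression and knockdown tables, and all 43 passed the filter on low counts and were tested in every comparison. RNA-seq libraries were made from 5637 cells, a human bladder carcinoma line, in 10 groups of 3 libraries. The knockout table held KO1 and KO2, both labelled RBPMS-KO, with their own control groups WT1 and WT2, both labelled WT. The overexpression table held cells given an empty vector (Vector), cells with overexpression of ANKRD10-1 and cells with overexpression of ANKRD10-2, the longer and the shorter splice product of ANKRD10. The knockdown table held cells transfected with a control siRNA (siNC), with siANKRD10-1 or with siANKRD10-2. All groups came from the same line, grown in medium with serum. RBPMS is an RNA-binding protein that acts on splicing, and the study asked how its loss and the 2 ANKRD10 products act on MYC target genes. The study's text speaks of knockout populations grown from single clones. The labels do not give the time after transfection or whether the 3 libraries of a group came from separate cultures, so p-values measure only the spread between these libraries. The study's text places ANKRD10-1 overexpression and ANKRD10-2 knockdown in cells already lacking RBPMS, whereas the labels name only 5637, so the background of those groups and of their controls is not settled here.

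DNA replication starts when the origin recognition complex, CDC6 and CDT1 load the MCM2-7 helicase onto origins. CDC45 and the GINS complex then switch that helicase on, the primase and polymerases copy the strands, and the sliding clamp PCNA, placed by the RFC clamp loader, keeps the polymerases on the template. Most of these genes are switched on before S phase by E2F transcription factors, and their mRNA levels follow how many cells of a culture are cycling. In bulk RNA-seq, fewer cells in S phase and less mRNA per cell cannot be told apart.

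The E2F motif was common in the promoters of these genes. Promoters (250 bases before to 50 bases after the start site, RefSeq, GRCh38.p14) were on hand for 36 of the 43 genes. At least one of the E2F motifs TTTCCCGC, TTTCGCGC, TTTGCCGC and TTTGGCGC, searched on both strands, was present in 20 of 36 (55.6%), compared with 3.3% of all 27305 promoters. The CCAAT box (CCAAT, both strands) was present in 21 of 36 (58.3%, compared with 35.7% of all promoters), the E-box CACGTG, the motif of MYC and its partner MAX, in 4 of 36 (11.1%, compared with 7.4%), and the CHR motif TTTGAA of mitotic genes in 1 of 36 (2.8%, compared with 15.4%). Matches may overlap, as those of the E2F motif on opposite strands do in MCM2 and MCM6. The windows below are a selection from genes named in the text, with the match in capitals, written 5′ to 3′ on the strand of the gene. They are descriptions of sequence and not binding sites.
CDC6 (chr17:40287875-40287904, plus strand, E2F motif): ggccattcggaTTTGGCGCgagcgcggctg
MCM3 (chr6:52284728-52284757, minus strand, E2F motif): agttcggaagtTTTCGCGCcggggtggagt
PCNA (chr20:5126663-5126692, minus strand, E2F motif): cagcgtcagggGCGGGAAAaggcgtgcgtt
POLA1 (chrX:24693770-24693799, plus strand, E2F motif): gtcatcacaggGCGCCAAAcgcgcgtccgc
POLE (chr12:132687342-132687371, minus strand, E2F motif): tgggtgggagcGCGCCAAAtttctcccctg
LIG1 (chr19:48170440-48170469, minus strand, E2F motif): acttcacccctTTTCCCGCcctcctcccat
UHRF1 (chr19:4909476-4909505, plus strand, E2F motif): gccgagttttcGCGGGAAAaaaatcagagc
FEN1 (chr11:61792869-61792898, plus strand, E-box): tggcgagcaggtCACGTGacgggagcgcgg
MCM2 (chr3:127598388-127598417, plus strand, E-box): gctttggtgggtCACGTGaaccacttttcg

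Library totals ranged from 44593108 to 69723937 counts in the knockout table, from 31736779 to 47493499 in the overexpression table and from 28511029 to 32784584 in the knockdown table. Levels are given as CPM, counts per 1000000 counts of a library, after TMM scaling over the libraries of a table. RBPMS was at 40.4 ± 1.66 CPM in WT1 and 14.9 ± 0.505 CPM in KO1, and at 43.1 ± 0.937 CPM in WT2 and 20.3 ± 1.23 CPM in KO2 (mean ± SD, n = 3). RBPMS was therefore lower in both knockouts, with mRNA still counted over the whole gene. In the overexpression table RBPMS was at 5.14 ± 0.36 CPM in Vector, 4.5 ± 0.811 CPM with ANKRD10-1 and 5.4 ± 0.789 CPM with ANKRD10-2, and in the knockdown table at 5.01 ± 0.749 CPM in siNC, 4.65 ± 0.089 CPM with siANKRD10-1 and 5.12 ± 0.072 CPM with siANKRD10-2 (SD, n = 3). None of these 4 treated groups passed the edgeR test for RBPMS against its control. ANKRD10 as a whole gene was lower in both knockouts (log2 fold change -1.18 in KO1 and -0.76 in KO2), higher than Vector in both overexpression groups (log2 fold change 0.67 and 0.41) and lower than siNC in both knockdown groups (-0.24 and -0.25). Gene counts do not separate the 2 splice products. The 7 epithelial markers (KRT5, KRT7, KRT8, KRT18, KRT19, EPCAM and CDH1) were at 75.1 CPM or more in every library, while the 5 leukocyte markers and the 4 endothelial markers reached at most 1.36 and 2.1 CPM. Among the 5 fibroblast markers the highest level was 52.2 CPM, that of COL1A1.

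Within a table, the levels of the replication genes differed widely from each other and little between libraries of a group. Per kilobase of exon, PCNA was the highest member in WT1 (244 ± 15.2 CPM per kb, SD, n = 3), followed by RRM1, the large subunit of ribonucleotide reductase (108 ± 6.53). RRM1 was the highest member in Vector (82.1 ± 3.62) and in siNC (116 ± 5.6 CPM per kb). E2F2, an E2F activator, was the lowest member in all 4 control groups, between 0.503 CPM per kb in siNC and 2.58 CPM per kb in WT2. The median coefficient of variation of the members within a group lay between 3.07% and 5.01%. The 3 tables were made separately, so levels are not compared between them by a test. The summed level of the 43 members moved little within each table. It was 5192 ± 77.8 CPM in WT1 and 5096 ± 19.2 CPM in KO1, 5416 ± 38.0 CPM in WT2 and 5191 ± 38.9 CPM in KO2 (SD, n = 3). Of these pairs, WT1 and KO1 overlapped, and all KO2 libraries were below all WT2 libraries. The sum was 2924 ± 7.8 CPM in Vector, 2945 ± 22.4 in ANKRD10-1 and 2968 ± 18.8 in ANKRD10-2, and 3877 ± 41.5 CPM in siNC, 3862 ± 46.8 in siANKRD10-1 and 3924 ± 57.8 in siANKRD10-2. All ANKRD10-2 libraries were above all Vector libraries, by little, and the ranges of the 3 siRNA groups overlapped.

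**Figure D1:**
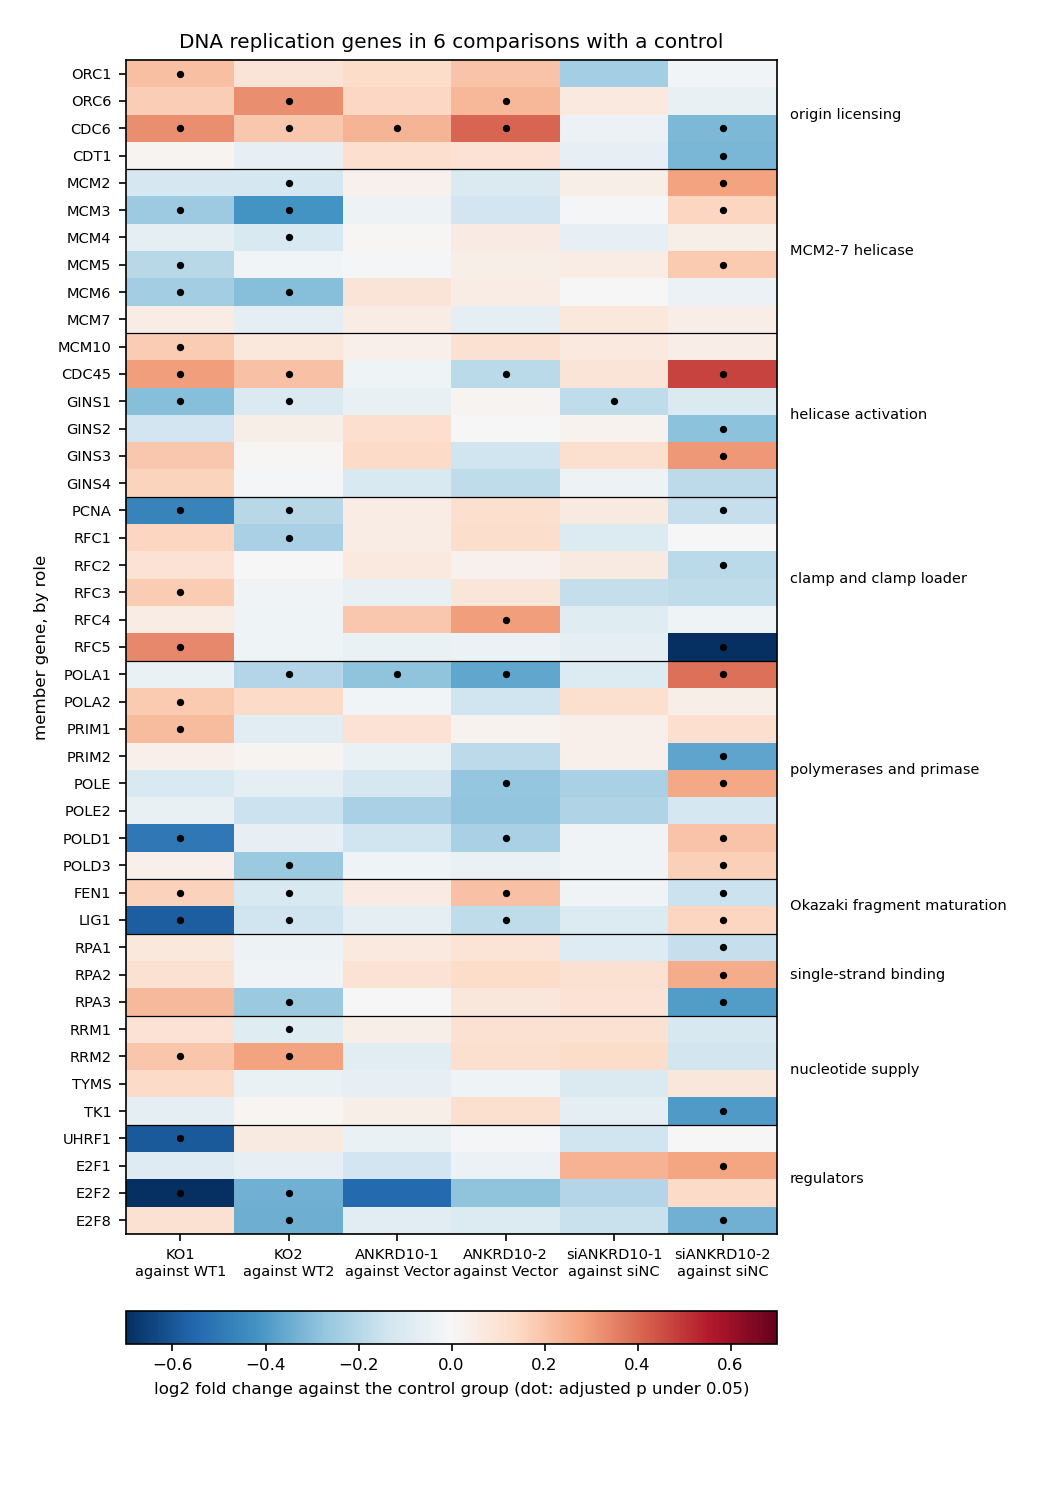
Log2 fold change of the 43 DNA replication genes (rows, grouped by role) in the 6 comparisons with a control group (columns). Red is higher and blue lower than the control, and a dot marks an adjusted p under 0.05 in the fit over all genes. Colours mix within most roles, CDC6 is red in the 4 left columns and blue at the right, and MCM3 and MCM6 are blue in both knockout columns.

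In the RBPMS knockouts, members changed in both directions. Each knockout was compared with its own controls, separately in KO1 and KO2. The study's text says that the knockouts were expanded from single clones, which may have gathered genetic variation. Effects of RBPMS loss, of the clone and of the guide therefore cannot be told apart within either pair. In each knockout 2 of the 4 licensing genes rose and none fell past the test, and 3 or 4 of the 6 MCM2-7 subunits fell and none rose past it. Under scaling to library totals CDC6 was the only licensing gene called higher in KO1, and a difference between the roles was not tested. In KO1, 10 of 43 members were higher and 9 lower than in WT1 (edgeR quasi-likelihood test, Benjamini-Hochberg adjusted over all genes, adjusted p under 0.05), compared with 17.9% of all tested genes called higher and 18.2% called lower. In KO2, 4 members were higher and 15 lower than in WT2, compared with a background of 19.3% higher and 19.2% lower. The median log2 fold change of the members was 0.05 in KO1 and -0.06 in KO2, that of all genes tested was -0.002 and -0.016. The called members were 23.3% higher and 20.9% lower in KO1, near the background, and 9.3% higher and 34.9% lower in KO2, where the calls lay mostly on the lower side. Scaling to library totals in place of TMM gave 4 higher (CDC6, CDC45, RFC5 and RRM2) and 10 lower in KO1, and 4 higher and 17 lower in KO2. Without the filter on low counts there were 5 higher and 9 lower in KO1. The count of members higher in KO1 also fell to 5 without WT1 replicate 2, to 6 without WT1 replicate 1 and to 6 without KO1 replicate 1. The count lower in KO2 was 10 without KO2 replicate 2, without KO2 replicate 3 or without WT2 replicate 3.

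Of the 43 members, 9 changed the same way in both knockouts, and 1 changed in opposite ways. CDC6, CDC45 and RRM2 rose in both, while MCM3, MCM6, GINS1, PCNA, LIG1 and E2F2 fell in both, and FEN1 was higher in KO1 and lower in KO2. The KO1 call of FEN1, and with it the opposite direction, was lost under scaling to library totals. The 10 members called in both made up 52.6% of those called in KO1 and 52.6% of those called in KO2. Over all genes with a symbol that were tested in both, 3811 were called in both, which was 59.6% of those called in KO1 and 54.9% of those called in KO2, and 80.9% of them had the same direction. Called in KO1 alone were ORC1, MCM10, RFC3, RFC5, POLA2 and PRIM1 as higher and MCM5, POLD1 and UHRF1 as lower. Of these 6 rises only that of RFC5 passed under scaling to library totals, and MCM2 was then called lower in KO1 too. Protein-coding genes on the same strand overlap 35.1% of the exon bases of POLA2 and 14.9% of those of PRIM1, so their counts are uncertain. Called in KO2 alone were ORC6 as higher and MCM2, MCM4, RFC1, POLA1, POLD3, RPA3, RRM1 and E2F8 as lower. The other 15 members, CDT1, MCM7, GINS2, GINS3, GINS4, RFC2, RFC4, PRIM2, POLE, POLE2, RPA1, RPA2, TYMS, TK1 and E2F1, passed the test in neither knockout.

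Among the licensing genes, CDC6, the loader of the helicase (chromosome 17, 40287633 to 40304657, GRCh38), was at 129, 136 and 138 CPM in WT1 and at 170, 172 and 165 CPM in KO1. In WT2 it was at 139, 146 and 144 CPM and in KO2 at 167, 165 and 157 CPM. The knockout libraries were above their controls in both pairs without overlap (log2 fold change 0.33 ± 0.05, SE, edgeR adjusted p = 0.000314 in KO1, and 0.19 ± 0.04, adjusted p = 0.00284 in KO2). ORC6, a subunit of the origin recognition complex, was at 41.8, 40.3 and 41.9 CPM in WT2 and rose to 54, 54.3 and 47.8 CPM in KO2 (log2 fold change 0.33 ± 0.06, SE, edgeR adjusted p = 0.000842). In KO1 the log2 fold change of ORC6 was 0.17, which did not pass the test. CDT1, the partner of CDC6 in loading, was at 0.02 in KO1 and -0.06 in KO2 on the log2 scale and passed in neither.

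The MCM2-7 helicase subunits showed no rise past the test in either knockout, with 3 of 6 lower in KO1 and 4 of 6 lower in KO2. MCM3 was at 171, 179 and 172 CPM in WT1 and at 148, 147 and 144 CPM in KO1, and at 188, 192 and 185 CPM in WT2 and 142, 138 and 144 CPM in KO2. The groups did not overlap in either pair. The log2 fold change of MCM3 was -0.25 in KO1 and -0.42 in KO2, and that of MCM6 -0.24 and -0.30. MCM2 was at 185, 184 and 173 CPM in WT1 and 167, 159 and 173 CPM in KO1, a difference that did not pass the test (log2 fold change -0.12, adjusted p = 0.0868 by edgeR). In WT2 it was at 185, 200 and 192 CPM and in KO2 at 179, 181 and 171 CPM (log2 fold change -0.12, edgeR adjusted p = 0.0328). That call of MCM2 was lost in the fit over all 4 groups, without KO2 replicate 1 or 3 and without WT2 replicate 2 or 3. An antisense gene overlaps 22.7% of the exon bases of MCM2, and whether counting used strand is not given in the sources used here.

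Among the helicase activators, CDC45, a part of the active helicase, was at 38.6, 40.8 and 37.5 CPM in WT1 and at 47.3, 46.6 and 49.2 CPM in KO1. It was at 42.5, 40.3 and 37.6 CPM in WT2 and 47.3, 47.1 and 45.1 CPM in KO2. CDC45 was therefore higher in all 6 knockout libraries than in their own controls (log2 fold change 0.29 in KO1 and 0.21 in KO2), although the KO2 call was lost without WT2 replicate 3. GINS1, a subunit of the GINS complex, fell by 0.30 in KO1 and by 0.10 in KO2 on the log2 scale.

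PCNA, the sliding clamp (chromosome 20, 5114953 to 5126626), fell in both knockouts and more in KO1. Its level was 334, 363 and 378 CPM in WT1 and 245, 272 and 263 CPM in KO1, and 374, 380 and 378 CPM in WT2 and 323, 338 and 330 CPM in KO2. The log2 fold change was -0.47 ± 0.06 (SE, edgeR adjusted p = 0.000115) in KO1 and -0.20 ± 0.03 (adjusted p = 0.00036) in KO2, and the difference between the knockouts passed the test (-0.27, adjusted p = 0.00703). PCNA has 3 annotated pseudogenes, so its counts may share reads with near copies. RFC5, a clamp loader subunit, was at 59.2, 56.4 and 56.1 CPM in WT1 and 69.7, 73.4 and 73.8 CPM in KO1 without overlap (log2 fold change 0.34). In WT2 and KO2 its ranges overlapped, with a log2 fold change of -0.03, and the difference between the knockouts was 0.36 (edgeR adjusted p = 0.000634).

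In nucleotide supply, RRM2, the small subunit of ribonucleotide reductase, rose in both knockouts. It was at 265, 267 and 268 CPM in WT1 and 309, 304 and 302 CPM in KO1, and at 277, 287 and 289 CPM in WT2 and 352, 349 and 339 CPM in KO2. The groups did not overlap in either pair (log2 fold change 0.19 ± 0.04 in KO1 and 0.28 ± 0.03 in KO2, SE). A readthrough gene shares 20.2% of the exon bases of RRM2 and the gene has 3 annotated pseudogenes. TYMS and TK1, which make and salvage thymidine nucleotides, passed the test in neither knockout.

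Among the regulators, E2F2 was at 11.5, 12.8 and 14 CPM in WT1 and 8.71, 7.25 and 7.58 CPM in KO1, and at 15.3, 13.7 and 13.3 CPM in WT2 and 11.3, 10.6 and 11.8 CPM in KO2. It had the largest fall of any member in KO1 (log2 fold change -0.70 ± 0.12, SE) and also fell in KO2 (-0.33 ± 0.09), a call lost without KO2 replicate 2 or WT2 replicate 1. E2F8, an E2F repressor, was at 43.2, 38.5 and 37.7 CPM in WT2 and 33.2, 29.8 and 31.4 CPM in KO2 (log2 fold change -0.34, edgeR adjusted p = 0.00131). E2F1, the best known activator of the family, was at 40.3, 37 and 33.8 CPM in WT1 and 37.6, 31 and 35.8 CPM in KO1, and at 38.4, 40.1 and 39.3 CPM in WT2 and 38.2, 37.1 and 38.5 CPM in KO2. The ranges overlapped in both pairs, and neither comparison of E2F1 passed the test.

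The 3 members on chromosome 19 all fell in KO1, where chromosome 19 as a whole was lower. UHRF1, which carries DNA methylation through replication, was at 195, 192 and 180 CPM in WT1 and 125, 129 and 123 CPM in KO1. LIG1, the ligase that seals Okazaki fragments, was at 78.7, 75.7 and 76.3 CPM in WT1 and 53.3, 50.8 and 50.8 CPM in KO1. POLD1, the catalytic subunit of polymerase delta, was at 72.9, 76 and 66 CPM in WT1 and 46.5, 52.4 and 53.3 CPM in KO1. No KO1 library of these genes reached the lowest WT1 library. The log2 fold changes were -0.59 for UHRF1, -0.57 for LIG1 and -0.50 for POLD1, while the median over the 1197 tested genes of chromosome 19 was -0.38. Relative to that median, the values were -0.21 for UHRF1, -0.20 for LIG1 and -0.12 for POLD1. In KO2 the median of chromosome 19 was -0.001, and LIG1 was at 80.2, 83.6 and 83.3 CPM in WT2 and 76, 72.1 and 76.8 CPM in KO2 (log2 fold change -0.14). UHRF1 (0.06) and POLD1 (-0.06) did not pass the test there. The part of the chromosome-wide shift in these 3 falls was not tested. No member lies on chromosome 9, whose median was -0.41 in KO2, or on chromosome 21, whose median was -0.27 in KO1. In KO2 the median was -0.167 on chromosome 13, where RFC3 lies, and -0.099 on chromosome 4, where RFC1 lies. On chromosome 16, where ORC6 lies, it was 0.084.

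**Figure D2:**
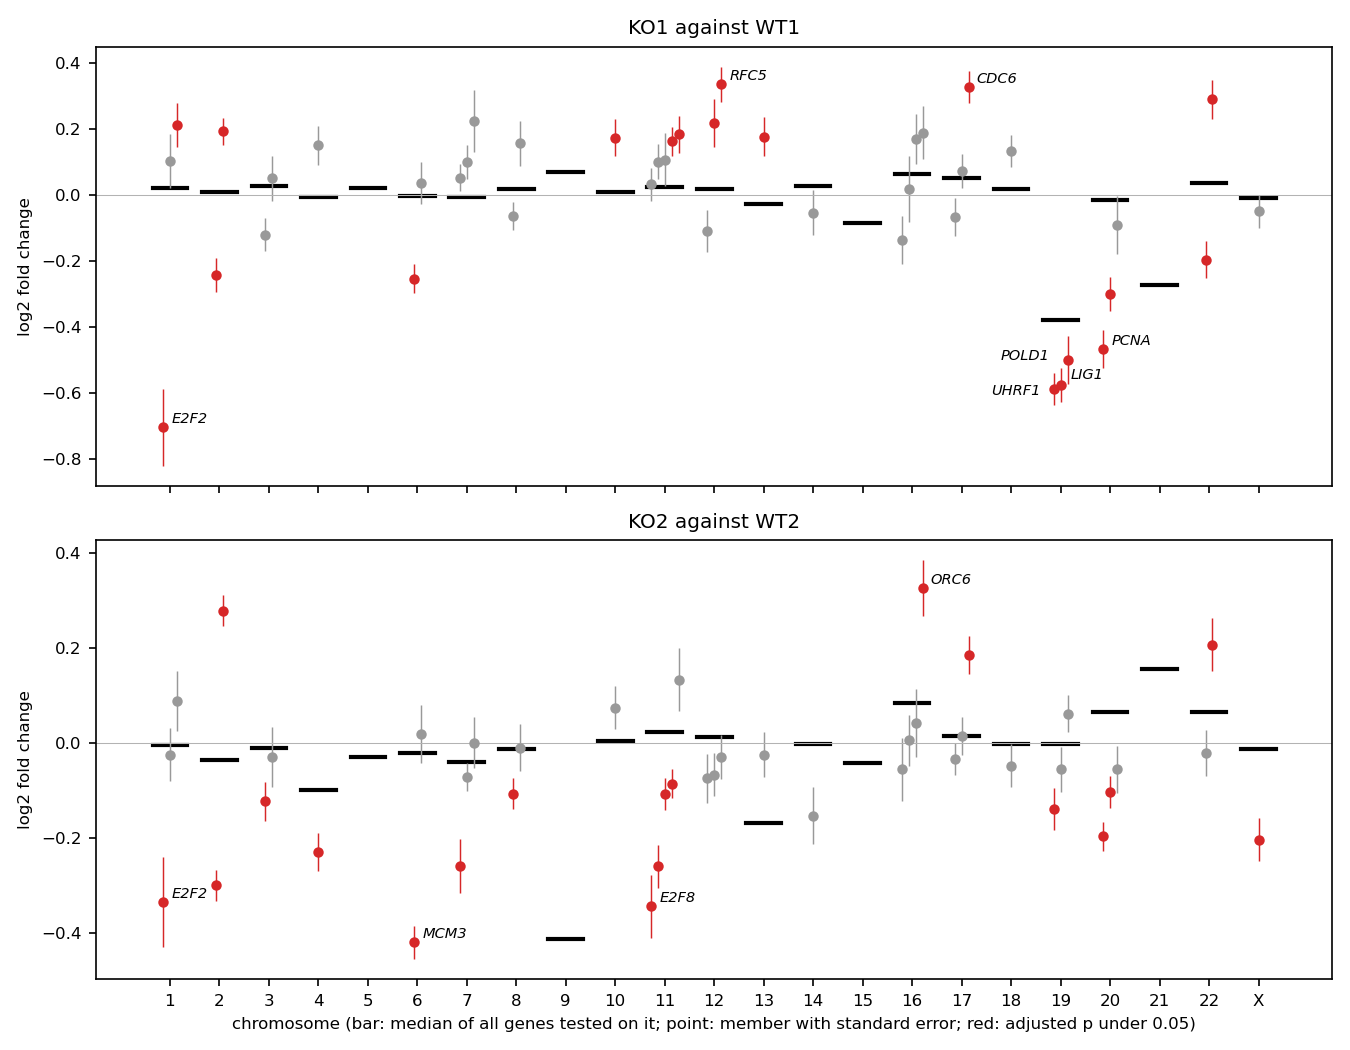
Log2 fold change of each member (points, with standard error) by chromosome in KO1 against WT1 and in KO2 against WT2, with the median of all tested genes of each chromosome as a black bar and members past the test in red. UHRF1, LIG1 and POLD1 sit below the chromosome 19 bar of -0.38 in KO1, while PCNA and E2F2 are low on chromosomes whose bars lie near 0.

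The knockouts differed from each other in 14 members when their effects were tested against one another, 9 with a higher value in KO1 and 5 with a lower one, compared with 11.2% and 12.1% of all genes. The 5 lower in KO1 were UHRF1, POLD1, LIG1, PCNA and GINS1. The 9 higher in KO1 were RPA3, E2F8, RFC1, RFC5, POLD3, PRIM1, FEN1, RRM1 and MCM3. The median of the difference over the members was 0.10 on the log2 scale, and over all genes 0.002. For RPA3, a subunit of the single-strand binding protein, the log2 fold change was 0.23 in KO1, which did not pass the test, and -0.26 in KO2, which did.

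The other replication genes, 69 in all, were also called in both directions. In KO1, 15 were higher and 11 lower, led by POLD4 (0.52), a small subunit of polymerase delta, and CDC25A (0.45), a phosphatase that releases CDK2, and by CHAF1A (-0.59) and DNMT1 (-0.53), both on chromosome 19. POLD4 was low, at 7.2 CPM or less in WT1 and 8.49 CPM or more in KO1. In WT2, the other control group, it was at 8.78 CPM or more. In KO2, 12 were higher and 25 lower, led by POLE4 (0.42) and CDC25A (0.30), and by RB1 (-0.74), the E2F inhibitor on chromosome 13, and ETAA1 (-0.59). Of the 30 mitosis genes, 7 were higher and 3 lower in KO1 and 4 were higher and 11 lower in KO2, with PLK1 (0.37 in both) among the rises and CENPF (-0.42 and -0.38) among the falls. MYC was higher in both knockouts (log2 fold change 0.42 in KO1 and 0.17 in KO2). CDKN1A, the CDK inhibitor p21, was at -0.01 in KO1, which did not pass the test, and rose in KO2 (0.34).

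Overexpression of either ANKRD10 product changed few replication genes. With ANKRD10-1, 1 member was higher and 1 lower than in Vector, compared with 3.5% of all tested genes called higher and 2.81% lower. With ANKRD10-2, 4 members were higher and 5 lower, compared with a background of 10.7% higher and 9.25% lower. The median log2 fold change of the members was 0.003 and 0.02 and that of all genes -0.004 and -0.005. The called members were 2.3% in each direction with ANKRD10-1, and 9.3% higher and 11.6% lower with ANKRD10-2, near the background. Scaling to library totals gave 1 higher and 2 lower for ANKRD10-1, and 2 higher (CDC6 and RFC4) and 8 lower for ANKRD10-2. The total of 9 for ANKRD10-2 fell to 4 without Vector replicate 2, and to 6 without Vector replicate 3 or without ANKRD10-2 replicate 2.

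CDC6 rose with both products. It was at 145, 134 and 137 CPM in Vector, at 165, 167 and 158 CPM with ANKRD10-1 and at 185, 188 and 178 CPM with ANKRD10-2. No library of one group reached into the next. The log2 fold change was 0.24 ± 0.05 (SE, edgeR adjusted p = 0.00396) with ANKRD10-1 and 0.41 ± 0.05 (adjusted p = 5.75e-05) with ANKRD10-2, and every leave-one-out fit of ANKRD10-2 gave between 0.38 and 0.44. POLA1, the catalytic subunit of polymerase alpha (chromosome X), fell with both. It was at 68.9, 66.3 and 69.1 CPM in Vector, 57.1, 59.5 and 51.2 CPM with ANKRD10-1 and 46.8, 56.9 and 55.1 CPM with ANKRD10-2, and the 2 overexpression groups overlapped (log2 fold change -0.28 and -0.36 against Vector). Both comparisons share the Vector libraries.

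With ANKRD10-2, the polymerase genes lay mostly below Vector. Of the 8 polymerase and primase genes, 3 fell with ANKRD10-2, none rose past the test and 7 had a negative value. With ANKRD10-1, 7 of the 8 also had a negative value against the same Vector libraries, and 1, POLA1, fell past the test. Under scaling to library totals POLE was called lower with ANKRD10-1 as well. POLE, the catalytic subunit of polymerase epsilon, was at 106, 109 and 102.6 CPM in Vector and 87.7, 88.6 and 86.4 CPM with ANKRD10-2 (log2 fold change -0.27 ± 0.05, SE). POLD1 was at 66.5, 77.9 and 77.3 CPM in Vector and 65.9, 61.1 and 62.4 CPM with ANKRD10-2 (-0.23 ± 0.06, SE), a call lost without Vector replicate 2 or 3 and without ANKRD10-2 replicate 2 or 3. For both genes all ANKRD10-2 libraries were below all Vector libraries. CDC45 and LIG1 also fell (-0.19 and -0.17). RFC4, a clamp loader subunit, was at 34.8, 36 and 35.3 CPM in Vector and 45.7, 42.7 and 41.4 CPM with ANKRD10-2 (0.29 ± 0.06, SE). ORC6 was at 64, 56.7 and 57.9 CPM in Vector and 67, 72.7 and 70.3 CPM with ANKRD10-2 (0.23), a call lost without Vector replicate 2 and under scaling to library totals. FEN1, the nuclease that trims Okazaki fragments, was the fourth member that rose (0.20).

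PCNA, MCM2, RRM2 and E2F1 did not pass the test with either product. PCNA was at 54.8, 53.5 and 54 CPM in Vector, 54.8, 53.7 and 60 CPM with ANKRD10-1 and 62.2, 56.6 and 56.3 CPM with ANKRD10-2. MCM2 was at 82.3, 82.1 and 87.5 CPM in Vector, 81.4, 82.3 and 93.8 CPM with ANKRD10-1 and 74.5, 80.4 and 79.5 CPM with ANKRD10-2. RRM2 was at 115, 124 and 118 CPM in Vector, 117, 112 and 109 CPM with ANKRD10-1 and 133, 127 and 125 CPM with ANKRD10-2. E2F1 was at 10.7, 10.6 and 9.57 CPM in Vector, 9.51, 9.43 and 9.13 CPM with ANKRD10-1 and 10.2, 8.75 and 10.9 CPM with ANKRD10-2. All ANKRD10-2 libraries lay above all Vector libraries for RRM2 and PCNA and below them for MCM2, without passing the adjusted test. Under scaling to library totals MCM2 was called lower with ANKRD10-2. In all, 34 of the 43 members did not pass it with ANKRD10-2 and 41 did not with ANKRD10-1.

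Between the products, 2 members were higher with ANKRD10-2 than with ANKRD10-1 and none lower, compared with 4.15% and 3.1% of all genes. They were CDC6 (0.17 ± 0.05, SE, edgeR adjusted p = 0.0468) and RRM2 (0.19 ± 0.05, adjusted p = 0.0312). At an unadjusted p under 0.05 by edgeR, 3 members were higher and 6 lower, and DESeq2 called 2 higher and 1 lower. In 5 of the 6 fits that left out 1 library no member was called, without ANKRD10-2 replicate 1 the single call was a lower one, and scaling to library totals called 2 other members, CDC45 and POLE, as lower. Among the other replication genes, SAMHD1, which breaks down deoxynucleotides, fell with both products (-1.19 with ANKRD10-1 and -1.32 with ANKRD10-2). With ANKRD10-2, 12 of the 68 tested genes of that list were higher, led by CCNE1 (0.46) and CDC25A (0.32), and 9 lower, SAMHD1 and TIMELESS (-0.29) most. With ANKRD10-1, 3 were higher and 2 lower. The mitosis genes counted 8 higher and 3 lower of 30 with ANKRD10-2 and 3 higher and 1 lower with ANKRD10-1. MYC rose with ANKRD10-2 (0.55), and with ANKRD10-1 it was at 0.16 without passing the test.

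**Figure D3:**
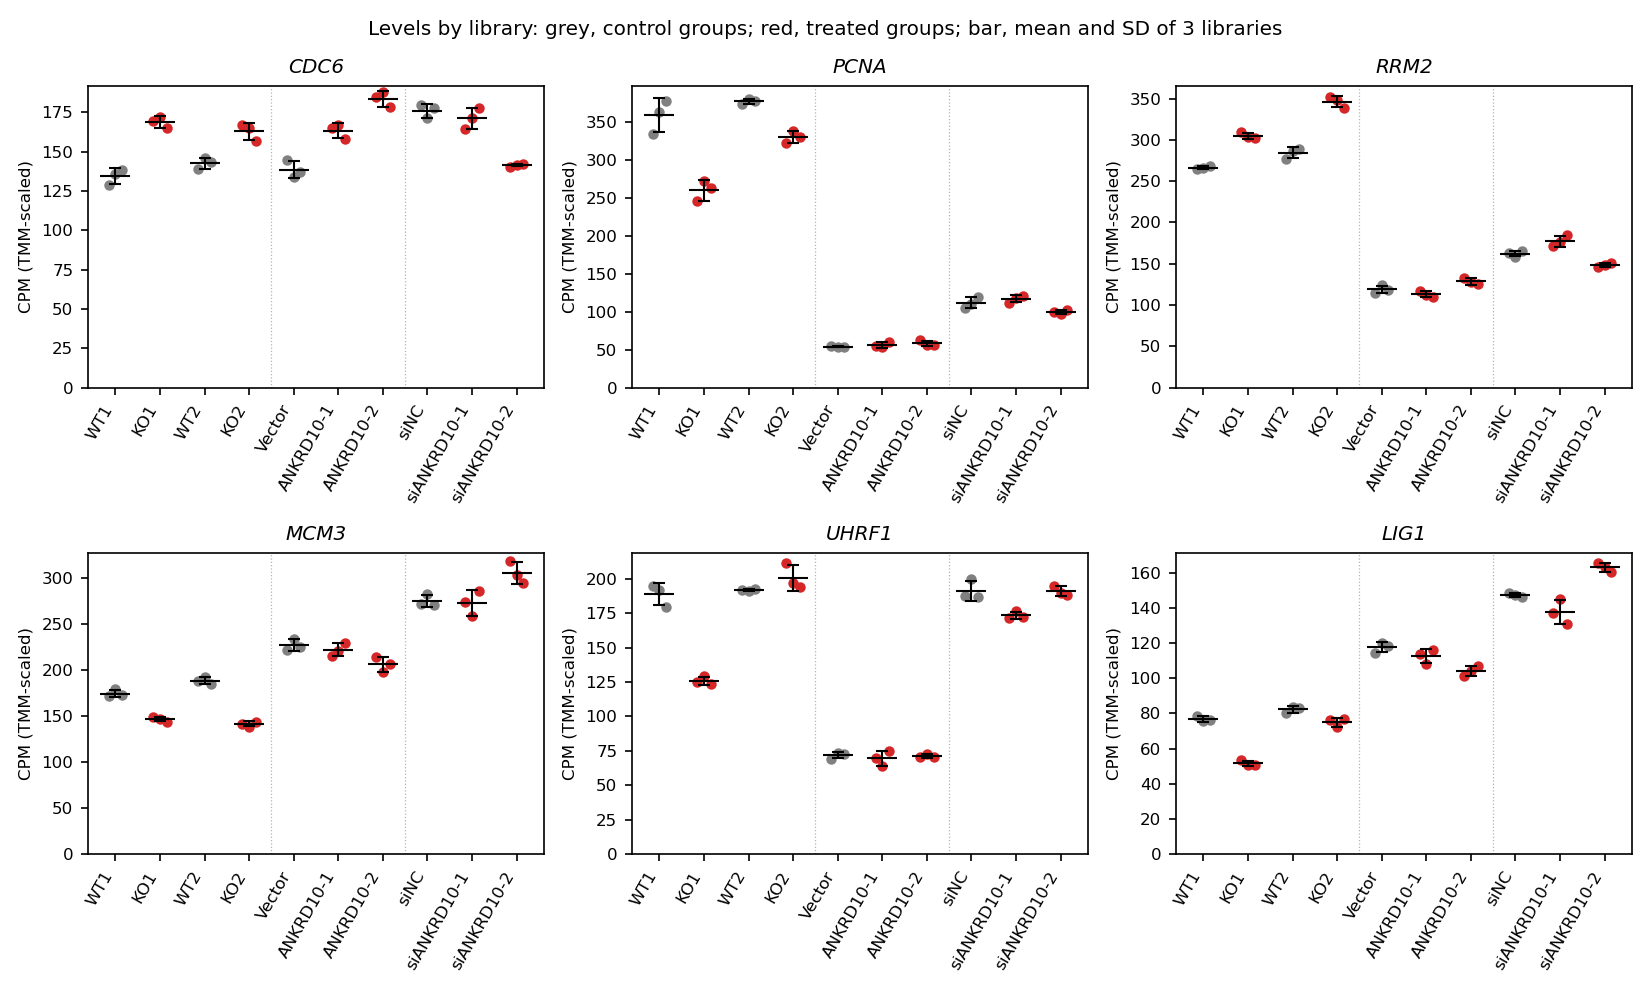
Level in CPM (TMM-scaled within each table) of CDC6, PCNA, RRM2, MCM3, UHRF1 and LIG1 in each of the 30 libraries, with grey points for control groups, red points for treated groups and bars for the mean and SD of 3 libraries. The dotted lines part the 3 tables, between which levels are not compared, and all 3 siANKRD10-2 libraries of CDC6 (141 to 142 CPM) lie below all siNC libraries.

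Knockdown with siANKRD10-2 was followed by calls in equal numbers up and down. Against siNC, 12 of 43 members (27.9%) were higher and 12 (27.9%) lower, compared with 17.6% and 18.7% of all tested genes, and the median log2 fold change was -0.02 (all genes 0.001). With siANKRD10-1, no member was higher and 1 was lower, compared with a background of 5.08% and 5.52%, and the median was -0.03. At an unadjusted p under 0.05 by edgeR, 2 members were higher and 5 lower with siANKRD10-1, and DESeq2 called 0 higher and 2 lower. Scaling to library totals gave 12 higher and 7 lower for siANKRD10-2. The total of 24 fell to 12 without siANKRD10-2 replicate 1 and to 16 without siANKRD10-2 replicate 2. The single siANKRD10-1 call, GINS1, was at 69.1, 68.8 and 68.2 CPM in siNC and 60.9, 59.9 and 61.5 CPM with siANKRD10-1 (-0.18 ± 0.06, SE, edgeR adjusted p = 0.0493). The groups did not overlap, but the call was lost in each of the 6 fits that left out 1 library, without the filter on low counts and under scaling to library totals.

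The 12 falls with siANKRD10-2 came from every role but the MCM2-7 helicase, with 2 among the licensing genes and 3 in the clamp and its loader. RFC5 (chromosome 12, 118013588 to 118033130) fell most, from 27.7, 25.4 and 26.8 CPM in siNC to 16.7, 17.1 and 15.3 CPM with siANKRD10-2 (log2 fold change -0.70 ± 0.08, SE, edgeR adjusted p = 4.95e-08). With siANKRD10-1 it was at 25.5, 25.9 and 25.1 CPM, and the direct comparison of both siRNAs gave -0.63 (adjusted p = 6.35e-07 by edgeR). The gene WSB2 on the opposite strand overlaps 5.7% of the exon bases of RFC5 and was itself at -0.485 with siANKRD10-2. RFC5 also has 1 annotated pseudogene, and reads shared with either gene were not separated. TK1, thymidine kinase, was at 47.4, 43.6 and 51.5 CPM in siNC and 34.1, 38.7 and 35.6 CPM with siANKRD10-2 (-0.39 ± 0.07, SE). RPA3 was at 29.8, 30.7 and 38.5 CPM in siNC and 24.5, 25.3 and 25.6 CPM with siANKRD10-2 (-0.39 ± 0.08, SE). RFC5, TK1 and RPA3 had every siANKRD10-2 library below every siNC library. CDC6 was at 180, 171 and 178 CPM in siNC, 165, 171 and 178 CPM with siANKRD10-1 and 141, 142 and 142 CPM with siANKRD10-2. It fell with siANKRD10-2 (-0.32 ± 0.05, SE, edgeR adjusted p = 2.18e-05) and not past the test with siANKRD10-1 (-0.04), and the direct comparison of both siRNAs passed (-0.27, adjusted p = 0.000278). CDT1 (-0.32), PRIM2 (-0.37), E2F8 (-0.33), GINS2 (-0.29), RFC2 (-0.19), RPA1 (-0.16) and FEN1 (-0.15) also fell, of which GINS2, RFC2, RPA1 and FEN1 were lost under scaling to library totals.

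PCNA was at 105.4, 110 and 120 CPM in siNC, 112, 117 and 121 CPM with siANKRD10-1 and 99.3, 96.9 and 102.7 CPM with siANKRD10-2. It fell with siANKRD10-2 (-0.16 ± 0.06, SE, edgeR adjusted p = 0.0257), a call lost under scaling to library totals, without siANKRD10-2 replicate 1 or 2 and without siNC replicate 2 or 3. RRM2 was at 163, 159 and 165 CPM in siNC, 171, 176 and 185 CPM with siANKRD10-1 and 146, 148 and 151 CPM with siANKRD10-2. Its siANKRD10-2 libraries were all below siNC, but the value did not pass the test (-0.13, edgeR adjusted p = 0.0575).

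The helicase subunits, helicase activators and polymerases held 9 of the 12 rises. CDC45 was at 79, 84.2 and 88.3 CPM in siNC, 86.2, 87.6 and 93.6 CPM with siANKRD10-1 and 113, 115 and 121 CPM with siANKRD10-2, the largest rise of a member (0.47 ± 0.06, SE, edgeR adjusted p = 2.52e-07). POLA1 was at 87.9, 81.1 and 78.7 CPM in siNC and 115, 106 and 102.4 CPM with siANKRD10-2 (0.39 ± 0.06, SE). GINS3 was at 10.8, 11.7 and 13.5 CPM in siNC and 14.6, 13.6 and 16.1 CPM with siANKRD10-2 (0.30 ± 0.10, SE), a call lost without siANKRD10-2 replicate 3 and without siNC replicate 1 or 2. MCM2 was at 152, 145 and 130 CPM in siNC, 147, 145 and 147 CPM with siANKRD10-1 and 178, 182 and 159 CPM with siANKRD10-2 (0.28 ± 0.06, SE). In each of these 4 genes the siANKRD10-2 libraries lay above all siNC libraries. Of the 6 MCM2-7 genes, 3 rose (MCM2, MCM3 at 0.15 and MCM5 at 0.18) and none fell past the test. Of the 8 polymerase and primase genes, 4 rose (POLA1, POLE at 0.27, POLD1 at 0.20 and POLD3 at 0.17) and PRIM2 fell. LIG1 (0.15) and RPA2 (0.26) rose too. E2F1 was at 14, 13.6 and 17.5 CPM in siNC, 17, 16.6 and 19.7 CPM with siANKRD10-1 and 17.1, 18.8 and 18.8 CPM with siANKRD10-2 (0.28 ± 0.09, SE). Its siNC and siANKRD10-2 ranges overlapped, and the call was lost without siANKRD10-2 replicate 2 or 3 and without siNC replicate 1 or 2.

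Compared directly with siANKRD10-1, siANKRD10-2 had 10 members higher and 11 lower, compared with 18.2% and 18.8% of all genes. The largest of the higher values were POLE (0.50 ± 0.06), POLA1 (0.49 ± 0.07) and CDC45 (0.39 ± 0.06), and the largest of the lower values RFC5 (-0.63 ± 0.08), RPA3 (-0.49 ± 0.07) and PRIM2 (-0.40 ± 0.11, SE). Of the 4 nucleotide supply genes, RRM1 (-0.21), RRM2 (-0.25) and TK1 (-0.33) were lower and TYMS (0.18) higher. The exons of TYMS overlap those of the antisense gene ENOSF1 over 39.1% of their length, so its counts are uncertain.

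Of the other replication genes, 14 of 68 were higher with siANKRD10-2, led by CLSPN (0.49), a checkpoint mediator, and POLE4 (0.48), and 13 lower, led by ORC5 (-0.62) and RRM2B (-0.50). With siANKRD10-1, 2 were higher and 3 lower. Of the 30 mitosis genes, 15 were lower and 5 higher with siANKRD10-2, and 8 were lower and none higher with siANKRD10-1. CDC20 (-0.43) and BIRC5 (-0.38) fell most with siANKRD10-2. MYC fell with siANKRD10-2 (-0.60) and was at 0.08 with siANKRD10-1. CDKN1A fell with both (-0.22 and -0.25).

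Gain and loss of ANKRD10-2, which share no library, called 7 members in common, and each had opposite signs in the 2 comparisons. CDC6 and FEN1 rose with overexpression and fell with siANKRD10-2, and CDC45, POLA1, POLE, POLD1 and LIG1 fell with overexpression and rose with siANKRD10-2. Under scaling to library totals FEN1 was called in neither comparison. The 7 were 77.8% of the members called with ANKRD10-2 overexpression and 29.2% of those called with siANKRD10-2. Among all genes with a symbol tested in both, 2015 were called in both, which was 51.1% and 29.7% of those called, and 65.6% of them had opposite signs, so opposite signs were the majority outside this list as well. Of the other replication genes 8 of 9 called in both were opposite, and of the mitosis genes 7 of 8. Leaving out 1 library of either comparison left between 3 and 7 members called in both, all with opposite signs, and CDC6, POLA1 and POLE were among them each time. The lowest number, 3, came without Vector replicate 2, and 4 remained without Vector replicate 3, ANKRD10-2 replicate 2 or siANKRD10-2 replicate 1. Across the 43 members the log2 fold changes had a Pearson r of -0.40, and across all genes -0.14. Genes are not independent replicates, and these values are descriptions. Since the cell background of the siANKRD10-2 and ANKRD10-2 groups may differ, the 2 comparisons are not exact counterparts.

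**Figure D4:**
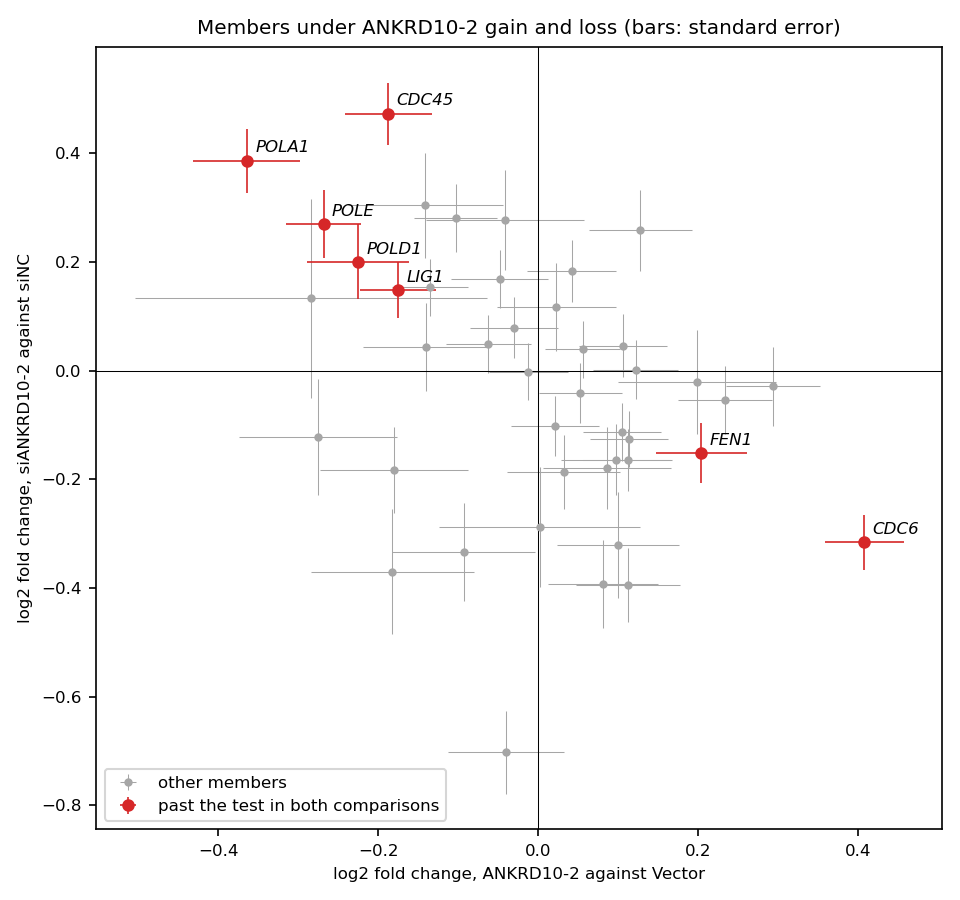
Log2 fold change of the 43 members with ANKRD10-2 overexpression against Vector (horizontal axis) and with siANKRD10-2 against siNC (vertical axis), with standard errors. The 7 red members passed the test in both, and all lie in the upper left or lower right part of the plot.

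CDC6 was called in 5 of the 6 comparisons with a control, more than any other member. It was higher in KO1, KO2 and both overexpression groups and lower with siANKRD10-2. CDC45, POLA1, FEN1 and LIG1 were called in 4 comparisons each, FEN1 in KO2 alone under scaling to library totals, and 4 members in none. How many of all tested genes were called that often was not counted, so these counts do not set CDC6 apart from other genes. MYC was higher in KO1, KO2 and with ANKRD10-2 and lower with siANKRD10-2, the same signs as CDC6, while with ANKRD10-1 CDC6 was called and MYC was not. The promoter of CDC6 held an E2F motif and CCAAT boxes in the window searched. No CACGTG was found there, which says only that these letters are not in this window. The part of MYC in the level of CDC6 was not tested.

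In KO1, KO2, ANKRD10-2 and siANKRD10-2, members with and without an E2F motif in the promoter were called in both directions, mostly in unequal numbers. In KO1, 3 of the 20 members with the motif were higher and 7 lower, compared with 7 higher and 1 lower of the 16 without it. In KO2 the counts were 1 higher and 8 lower with the motif and 3 higher and 3 lower without it. With siANKRD10-2, 7 of the 20 were higher and 4 lower, and of the 16 without the motif 2 were higher and 6 lower. With ANKRD10-2 the counts were 1 higher and 3 lower with the motif and 3 higher and 2 lower without it. With ANKRD10-1 they were 1 higher and 1 lower against none, and with siANKRD10-1 none higher and 1 lower against none. Of all tested genes, 17.9% were called higher and 18.2% lower in KO1, and 19.3% and 19.2% in KO2. The shares were 17.6% and 18.7% with siANKRD10-2, and 10.7% and 9.25% with ANKRD10-2. They were 3.5% and 2.81% with ANKRD10-1, and 5.08% and 5.52% with siANKRD10-1. Under scaling to library totals, the counts in KO1 were 1 higher and 8 lower with the motif and 3 higher and 1 lower without it. Those in KO2 were then 1 higher and 10 lower with it and 3 higher and 3 lower without it. Those with ANKRD10-2 were 1 higher and 6 lower with it and 1 higher and 2 lower without it. Those with siANKRD10-2 were 7 higher and 2 lower with it and 2 higher and 3 lower without it. These counts are descriptions of a split made after the values were known, and UHRF1 and LIG1, both on chromosome 19, are among the members with the motif.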

How the data were processed

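RNA was sequenced in 30 libraries of 5637 cells. The authors deposited 3 tables of raw read counts per gene. Their processing notes name Trimmomatic 0.36, Subread 1.5.1 with featureCounts, and the build GRCh38. The methods name HISAT2 for alignment and StringTie for expression levels. Whether counting used strand is not given in the sources used here, and reads shared with overlapping genes or pseudogenes could move to or from a member. The knockout table was joined by Ensembl identifier, the others by symbol. The spans of 41 of the 43 members were identical in GENCODE 29.

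Each treated group was compared with its own control by the edgeR 4.0.16 quasi-likelihood test (R 4.3.3) on the deposited counts, with filterByExpr (minimum count 10, minimum total 15), TMM scaling and Benjamini-Hochberg adjustment over all genes tested (adjusted p under 0.05). A contrast over the 4 knockout-table groups tested how far KO1 and KO2 effects differ. SE is the size of the log2 fold change divided by the square root of F. The fit was tested on simulated data. Alternatives were RLE scaling, library totals, no filter, DESeq2 1.42.0, a replicate block, fits over all groups, removal of chromosome medians and leaving out each library. Values in every library are given for PCNA, MCM2, CDC6, RRM2 and E2F1 and for the 3 largest rises and falls called per comparison with a control. At most 2 rises and 2 falls are named from the other lists. MCM3 and POLD1 in KO1, LIG1 in KO2, RFC5 with siANKRD10-1 and the E2F motif split were added after their values were seen. Library totals were 28511029 counts or more, and counting error is larger for members with few counts. The lowest member, E2F2, had about 65 counts in its lowest library. Its coefficient of variation was 24.4% in Vector and 25.4% with ANKRD10-2. The members and gene lists were chosen with earlier results of these data known.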

Additional observations from a re-analysis of the deposited data

Results flagged for a closer look

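The effects of the 2 knockouts, each against its own controls, differed in 14 members by the edgeR test of the difference (KO1 effect minus KO2 effect, log2 scale). Lower in KO1 were UHRF1 (-0.65), POLD1 (-0.45), LIG1 (-0.44), PCNA (-0.27) and GINS1 (-0.20). Higher in KO1 were MCM3 (0.16), RRM1 (0.18), FEN1 (0.27), PRIM1 (0.29), POLD3 (0.29), RFC5 (0.36), RFC1 (0.38), E2F8 (0.45) and RPA3 (0.48). UHRF1, POLD1 and LIG1 lie on chromosome 19, whose median difference over all genes was -0.39, and relative to it their values were -0.26, -0.06 and -0.05. PCNA and GINS1 lie on chromosome 20, whose median difference was -0.114, and the part of that shift in their values was not tested. For MCM3 both knockouts were lower than their controls, and the fall was larger in KO2. For FEN1 the 2 effects had opposite signs and each passed its own test, although the KO1 call was lost under scaling to library totals. Between 11 and 14 members were called in the fits that left out 1 library.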

How the results depend on the processing

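Of the total counts of called members, both directions together, those for KO1, KO2, ANKRD10-1, siANKRD10-2 against siANKRD10-1 and the difference of the knockouts stayed within 1.5 times of the value given under every alternative, although the split by direction moved (members higher in KO1 from 10 to 4 under library totals and 5 without the filter). With ANKRD10-2 the count ranged from 4 to 9 when 1 library was left out, with siANKRD10-2 from 12 to 20. With siANKRD10-1, where 1 member was called, RLE scaling, DESeq2 and the fit over all groups each called 2, the replicate block 3, library totals 0, and leave-one-out fits 0 to 2. For ANKRD10-2 against ANKRD10-1, no filter and the replicate block each called 1, and leave-one-out fits 0 to 1. Under library totals the member median moved to 0.009 in KO1, -0.097 in KO2, -0.041 with ANKRD10-1, -0.058 with ANKRD10-2 and -0.007 between the products. Without the filter it was -0.069 in KO2. After removal of chromosome medians it was -0.078 in KO2, 0.009 with ANKRD10-1, -0.037 with siANKRD10-1 and 0.004 between the products. Leave-one-out medians ranged from -0.072 to -0.036 in KO2, -0.009 to 0.01 with ANKRD10-1, -0.037 to -0.005 with siANKRD10-1, -0.005 to 0.03 between the products and -0.01 to 0.068 between the siRNAs. Signs turned for MCM2 with ANKRD10-1 (library totals -0.013, leave-one-out -0.036 to 0.069), MCM2 with siANKRD10-1 (-0.022 to 0.089) and E2F1 with ANKRD10-2 (-0.108 to 0.046), none of which had passed the test. The cause of these shifts was not tested. Same-numbered libraries deviated together little (correlations from -0.035 to 0.082), and the main fits used no pairing. The replicate block moved the count of called members by over 1.5 times only in the 2 comparisons named above. In KO2 against WT2 and in ANKRD10-2 against Vector, 3 of 3 treated libraries were closest to their own number. Their correlations were 0.04 to 0.059 and 0.024 to 0.07, a hint of pairing from the data only.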
